A study of Mus musculus with 90 samples.

Results

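Naive YUMM2.1 cells, a mouse melanoma line that had not met interferon-γ (IFNγ) before, were exposed to 50 IU/mL IFNγ for 24 h and compared with control cells of the same line. The comparison rests on 6 of the 90 samples of the series, 3 treated and 3 control, chosen by the line, week, treatment and hour in their labels. The control samples are labelled as given bovine serum albumin (BSA, 0 IU/mL IFNγ) and taken at 0 h, while the study describes the 0-week controls of this time course as untreated. No mock-treated 24 h sample is among those analysed here, so that 24 h of IFNγ and 24 h of further culture cannot be told apart. Both groups were grown in RPMI with serum, and neither had been through the weeks of continuous IFNγ that other YUMM2.1 groups received. The labels speak of triplicate experiments, and the study states that its replicates were biological and independent. The method was 3′ digital gene expression, in which each read comes from the 3′ end of a transcript. The control samples held 1867497, 812316 and 1613228 counts and the 24 h samples 857804, 1023031 and 2341377. Levels are given in CPM, counts scaled to a common library total as is usual in the field. A single count was worth between 0.427 and 1.23 CPM, and a gene without counts in one control sample could still have stood at up to 3.69 CPM there (3 counts). These limits and the intervals given for ratios cover counting error only.

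The label of the line was checked against marker genes. Of 17 melanocyte genes, 9 had 0 counts in all 3 controls, among them *Tyr*, *Tyrp1* and *Mlana*, which serve pigment synthesis and melanosomes. *Sox10*, a factor of the neural crest lineage, had 33, 16 and 34 counts, and *Mitf*, the regulator of pigment genes, had 2, 0 and 1. The pigment program that defines melanocytes was thus near 0, while *Sox10*, *Pax3*, *Mc1r* and *Gpnmb* were measured. Of 16 markers of blood and immune cells, 11 were at 0 in all controls and 12 in all 24 h samples. Their summed level was 3.82 to 8.55 CPM in the controls and 3.07 to 5.51 at 24 h, and *Cd3e*, *Itgam*, *Adgre1* and *Ncr1* had 0 counts in all 6 samples. Of 10 markers of keratinocytes, endothelium and fibroblasts, *Pecam1* was the exception with 624, 253 and 567 counts in the controls and 323, 423 and 902 at 24 h. The other 9 summed to 10.9 to 18.0 CPM in the controls and to 12.3 to 16.4 at 24 h, and *Cdh5*, a second endothelial gene, had 1 count in 1 control.

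IFNγ is the cytokine by which T cells and natural killer cells alert other cells. It binds a receptor of the chains *Ifngr1* and *Ifngr2*, whose kinases *Jak1* and *Jak2* phosphorylate transcription factors of the STAT family. STAT dimers bind palindromic sites called GAS and induce, among others, the factor *Irf1*, which binds ISRE sites and carries the response into its later phase. In tumour cells the pathway is known for raising antigen presentation, and also for raising signals that restrain T cells.

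The promoters of 4 genes at the centre of the response are shown because they hold these sites in different arrangements. Each line gives the 250 bases before the annotated start from RefSeq (build GRCm38.p6), 5′ to 3′ on the strand of the gene, and capitals mark a GAS match (TTCNNNGAA) or an ISRE core match. The ISRE core was searched as 2 copies of GAAA with 2 bases of any kind between them, in either orientation, and where both motifs overlap or touch, both are in capitals. *Irf1* lies at chr11:53769764-53770013 on the + strand and holds a GAS match that begins 90 bases before the start. *Gbp2* lies at chr3:142620413-142620662 (+) and holds an ISRE match that begins 59 bases before the start. *Gbp7* lies at chr3:142530086-142530335 (+) and holds GAS matches at 106 and 87 bases and an ISRE match at 53 bases. *Igtp* lies at chr11:58199306-58199555 (+) and holds a GAS match at 45 bases followed by an ISRE match at 34 bases.
Irf1: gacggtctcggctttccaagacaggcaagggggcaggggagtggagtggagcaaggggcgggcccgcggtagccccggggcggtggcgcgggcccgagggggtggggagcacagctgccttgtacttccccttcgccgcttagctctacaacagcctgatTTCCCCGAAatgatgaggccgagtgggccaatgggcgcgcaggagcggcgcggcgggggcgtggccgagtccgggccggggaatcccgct
Gbp2: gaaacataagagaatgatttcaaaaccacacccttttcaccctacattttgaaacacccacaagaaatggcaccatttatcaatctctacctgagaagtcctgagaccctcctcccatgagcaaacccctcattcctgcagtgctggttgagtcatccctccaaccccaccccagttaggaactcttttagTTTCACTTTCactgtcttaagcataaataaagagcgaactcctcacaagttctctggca
Gbp7: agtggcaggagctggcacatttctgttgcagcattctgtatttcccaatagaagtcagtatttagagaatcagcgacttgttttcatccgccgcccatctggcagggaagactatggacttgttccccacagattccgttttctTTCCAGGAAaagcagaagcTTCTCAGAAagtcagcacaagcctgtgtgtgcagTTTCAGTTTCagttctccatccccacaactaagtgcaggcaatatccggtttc
Igtp: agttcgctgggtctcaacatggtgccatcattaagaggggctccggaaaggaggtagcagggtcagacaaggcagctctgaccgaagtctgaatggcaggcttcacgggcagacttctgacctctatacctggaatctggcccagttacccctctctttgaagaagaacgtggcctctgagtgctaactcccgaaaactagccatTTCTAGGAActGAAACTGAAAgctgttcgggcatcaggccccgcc

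Of the 82 genes that were higher at 24 h, 54 had a promoter entry and 28 had none, so the shares that follow describe those 54 and are void as a check of all 82. Among the 54, 16 held a GAS match, 25 an ISRE core match and 32 at least 1 of both (59.3%, 95% exact binomial interval 45.03% to 72.4%) in the 300 bases from 250 before to 50 after the start. The same letters were found in 11.1% of 7378 tested genes with an entry, 7.83% for GAS and 3.80% for the ISRE core, and in 12.9% of all 27025 genes of the promoter table. The entries of *Psmb9*, *Psmb10* and *Psme2* held neither. A match is a description of letters, and binding was not measured.

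Exposure for 24 h raised 82 of 9589 tested genes and lowered 3 (edgeR quasi-likelihood test, Benjamini-Hochberg adjusted p below 0.05). These are 0.855% and 0.0313% of the genes tested. At an unadjusted p below 0.05 there were 408 higher and 265 lower genes, and the median log2 fold change over all tested genes was 0.02. In all 82 genes each of the 3 treated samples was above each of the 3 controls, and in the 3 lower genes each was below. Over all tested genes such separation was found in 6.98% upward and 5.55% downward. In RNA from whole cultures, a change in the number of expressing cells and a change in RNA per cell cannot be told apart.

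The 82 genes together made up 0.243%, 0.213% and 0.251% of all scaled counts in the controls and 1.09%, 1.23% and 1.17% at 24 h. Their median log2 fold change was 3.68, or 3.46 with the 6 genes that had no control count set at their lower bound. A log2 fold change of at least 4 was reached by 38 genes and of at least 2 by 65, while 7 stayed below 1. The annotation gives 78 of them as protein coding, 2 as processed pseudogenes, 1 as a lincRNA and 1 as a processed transcript. Of the 85 genes called, 67 belonged to lists of interferon and cell functions compiled for this comparison and 18 to none. The lists were compiled with earlier results of these data known, and the share of all tested genes that belong to them was not taken. The 67 therefore describe the calls and are no test of what the response is. The 25 genes with the smallest p-values, of which 24 are given in full, stayed called whichever of the 6 libraries was left out, and 24 of the 85 lost their call without at least 1 library. With all 12 YUMM2.1 controls, taken at 0 to 3 weeks, in place of the 3 at 0 weeks, 13 of the genes named as not called passed the test, as given at their values or in the closing section.

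**Figure D1:**
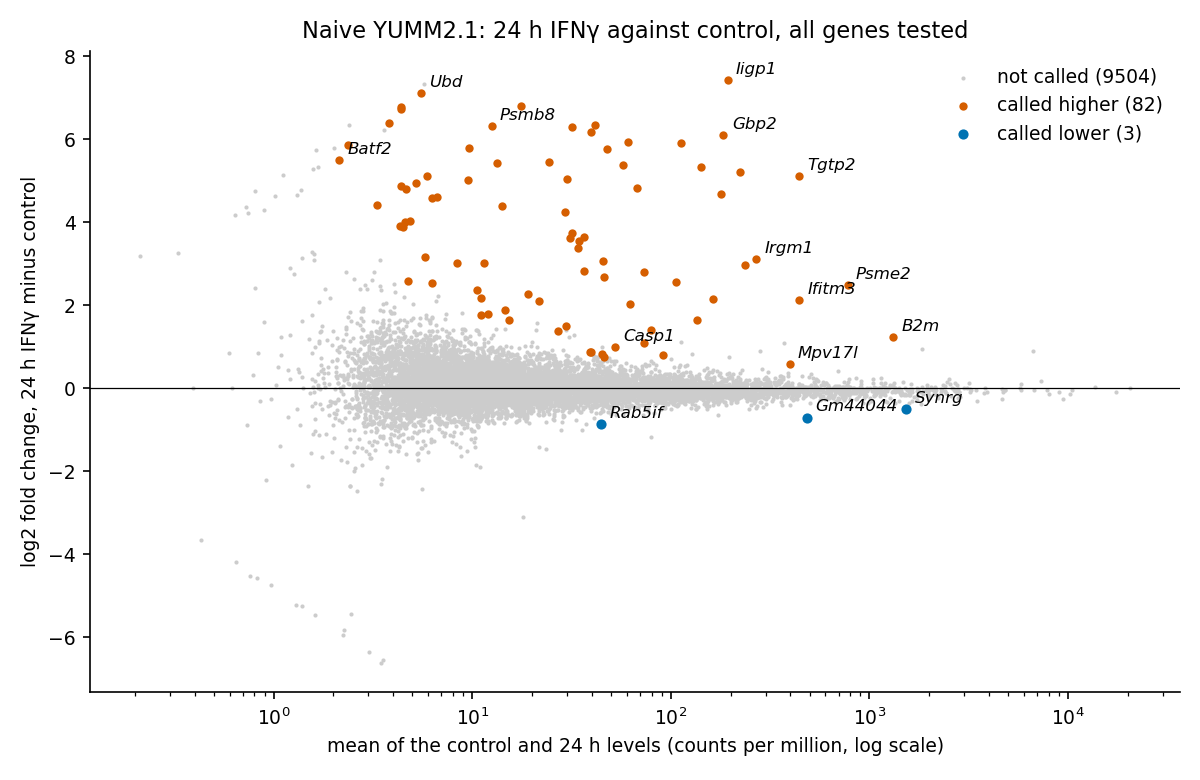
Each point is 1 of the 9589 tested genes, with the mean of its control and 24 h levels on the x axis (CPM, log scale) and its log2 fold change at 24 h minus control on the y axis. The 82 genes called higher (orange) reach a log2 fold change of 7.42 at *Iigp1*, whereas the 3 called lower (blue) stay between -0.87 and -0.50.

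Among the genes that carry the signal, 9 tested genes of the receptor, its kinases and the STAT family did not pass the edgeR test. *Stat2*, a factor of type I interferon signalling, came nearest with 0, 0 and 3.86 CPM in the controls and 10.1, 3.07 and 11.5 at 24 h (log2 fold change 2.55 ± 0.68, SE, adjusted p = 0.0548, n = 3 and 3), and its groups overlapped. *Stat2* was called by DESeq2 (adjusted p = 0.0414), without the filter on low counts (0.00975), without 24 h replicate 2 (0.0197) or control replicate 3 (0.00126), and with all 12 controls (0.0126). *Jak2* was at 4.91, 2.44 and 2.57 CPM in the controls and 7.87, 8.198 and 8.06 at 24 h (log2 fold change 1.19 ± 0.57, adjusted p = 0.6899). The receptor chain *Ifngr1* was at 28.9, 17.1 and 26.4 CPM in the controls and at 26.97, 24.6 and 16.97 at 24 h, which overlap.

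None of 9 tested feedback inhibitors passed the test. *Socs1*, which blocks the JAK kinases, was at 7.64, 6.104 and 3.22 CPM in the controls and 11.2, 11.3 and 8.91 at 24 h (log2 fold change 0.84 ± 0.45, adjusted p = 0.779). *Usp18*, which removes ISG15 and dampens interferon signalling, had 0 counts in the 3 controls and 4, 2 and 7 at 24 h (adjusted p = 0.0883), so that few counts stand behind either gene. With all 12 controls *Usp18* was called (adjusted p = 0.000168).

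Of 6 tested factors of the IRF list, *Irf1* and *Batf2* rose. *Irf1* stood at 10.4, 7.33 and 8.37 CPM in the controls, at 177, 121 and 157 after 2 h and at 55.1, 73.8 and 63.2 at 24 h. Its 24 h level was above control by a log2 fold change of 2.82 ± 0.23 (adjusted p = 4.20e-13). *Batf2*, an AP-1 family factor of the interferon response, had 0 control counts and was at least 4.32-fold higher at 24 h (7.87, 4.10 and 0.848 CPM, adjusted p = 0.0439). The bound sets the control at 3 counts over its 3 samples, as in every bound given here. The call of *Batf2* was lost without 24 h replicate 1 or 2 and without any 1 of the controls (adjusted p from 0.105 to 0.355). *Irf9*, the DNA-binding subunit of the complex formed in type I interferon signalling, was at 73.1, 68.4 and 79.2 CPM in the controls and 117, 95.3 and 88.6 at 24 h (0.42 ± 0.17, adjusted p = 0.521). *Irf2*, which binds the same sites as Irf1, was at 14.7, 13.4 and 5.15 in the controls and 14.6, 28.7 and 16.1 at 24 h (0.82 ± 0.33, adjusted p = 0.539, and 0.0281 with all 12 controls).

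The guanylate-binding proteins (GBPs), large GTPases that attack the vacuoles of intracellular microbes, rose as a family, with 7 of 9 tested members called higher. Their median log2 fold change was 5.33 (4.94 with the genes without control counts at their bound) against 0.02 over all genes. *Gbp2* had the smallest p-value of the whole comparison. It stood at 3.82, 7.33 and 5.79 CPM in the controls and at 333, 368 and 387 at 24 h (6.09 ± 0.20, adjusted p = 3.94e-27), and the groups did not overlap. Its promoter, shown above, holds the ISRE match close to the start. *Gbp3* went from 2.18, 0 and 2.57 to 98.9, 143 and 119 CPM (5.93 ± 0.31, adjusted p = 6.17e-20) and *Gbp7* from 4.91, 3.66 and 4.505 to 134, 140.4 and 117 (4.82 ± 0.24, adjusted p = 7.92e-21). These 3 genes lie in one run on chromosome 3, together with GBP genes that were not tested.

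The other tested GBP genes lie in a second cluster on chromosome 5 and resemble each other closely. *Gbp4* rose from 3.82, 3.66 and 3.22 to 265, 245 and 154 CPM (5.90 ± 0.34, adjusted p = 2.25e-18) and *Gbp6* from 1.64, 0 and 2.57 to 91.02, 104 and 87.8 (5.75 ± 0.46, adjusted p = 4.05e-13). Since reads of near-identical copies can be split between them, the sum over *Gbp4*, *Gbp6*, *Gbp8*, *Gbp9*, *Gbp10*, *Gbp11* and the model *Gm43302* was also taken. It was 9.27, 18.3 and 10.3 CPM in the controls, 96.1, 75.3 and 89.0 at 2 h and 516, 564 and 338 at 24 h. Within this sum *Gbp9* went from 3.27, 9.77 and 4.505 to 68.5, 88.1 and 33.1 CPM (adjusted p = 7.08e-10), *Gm43302* from 0, 4.88 and 0 to 80.9, 104 and 49.2 (adjusted p = 5.51e-06), and *Gbp8* had 1 control count and 6.74, 17.4 and 6.36 CPM at 24 h (adjusted p = 0.000362). *Gbp11* had 0 counts in the controls and 3.37, 4.099 and 2.54 CPM at 24 h (adjusted p = 0.0603, and 8.31e-05 with all 12 controls), and *Gbp10* had 0 counts in 4 of the 6 samples.

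The immunity-related GTPases (IRGs), which also act on the membranes of pathogen vacuoles, and the very large inducible GTPases listed with them were higher in 13 of 14 tested members, with a median log2 fold change of 5.27 (5.17 at the bound). *Iigp1* stood at 1.64, 4.88 and 1.29 CPM in the controls and at 361, 394 and 396 at 24 h (7.42 ± 0.29, adjusted p = 6.03e-25). That is the largest fold change among the genes called whose controls held more than 3 counts. *Igtp*, whose promoter holds adjoining GAS and ISRE matches, went from 9.82, 3.66 and 5.15 to 264, 293 and 277 CPM (5.33 ± 0.25, adjusted p = 1.12e-21). *Ifi47* went from 3.27, 3.66 and 1.29 to 118, 106 and 114 (5.38 ± 0.30, adjusted p = 3.19e-19).

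The regulatory members of the family, named for the methionine in their GTP-binding motif, restrain the effector IRGs at the cell's own membranes. They are *Irgm1*, *Irgm2* and *Igtp*. *Irgm1* was already present in the controls at 51.8, 57.4 and 59.2 CPM and reached 439, 492 and 512 at 24 h, a log2 fold change of 3.11 ± 0.15 (adjusted p = 2.94e-21). *Irgm2*, which overlaps *Igtp* on the same strand of chromosome 11, went from 0, 4.88 and 1.93 to 60.7, 48.2 and 63.6 (5.04 ± 0.35, adjusted p = 1.30e-15). Reads of the overlap cannot be assigned to either gene with certainty.

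*Gm12250*, another IRG, had 1 count in the controls and 31.5, 33.8 and 39.02 CPM at 24 h (adjusted p = 1.45e-12), a ratio of 152 with a 95% counting interval from 26.9 to 6057. *Tgtp1* and *Tgtp2* are near-identical copies, and their single values scattered between samples (*Tgtp1* at 27.8, 0 and 0 and *Tgtp2* at 6.001, 36.6 and 37.97 CPM in the controls). Their sum lay closer together. It was 33.8, 36.6 and 38.0 CPM in the controls, 149, 149.95 and 162 at 2 h and 1338, 1389 and 1165 at 24 h. *Gvin1* and *Gm4070*, very large inducible GTPases that share sequence, summed to 1.09, 0 and 1.29 CPM in the controls and to 44.9, 76.9 and 36.5 at 24 h. Which of the pair passed the test depended on the setting. *Gm4070* was called (adjusted p = 0.0474) but not with library totals (0.0570), the replicate block (0.0576) or without the 1 YUMM2.1 sample under 25% of the median total (0.0614), nor without 24 h replicate 1 or 2 or any 1 control (0.0973 to 0.256). *Gvin1* was not called (adjusted p = 0.862), but was by DESeq2 (4.35e-06) and without the filter (1.18e-06). The members *Gm4841*, *Gm4951* and *F830016B08Rik*, all neighbours of *Iigp1* on chromosome 18, held 1 to 3 counts over the controls, and their counting ratios lay between 35.9 and 46.8. Their 24 h levels lay between 8.91 and 32.6 CPM. On chromosome 11, *9930111J21Rik2* had 2 control counts and 5.62, 16.4 and 3.82 CPM at 24 h (adjusted p = 0.0187), a call that was lost without 24 h replicate 2 or any 1 control (adjusted p from 0.101 to 0.307).

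The proteasome cuts cytosolic proteins into peptides, and IFNγ is known to induce a variant of it. Of 6 tested genes of this immunoproteasome and its PA28 activator, 5 were higher, with a list median of 2.76. None of 14 subunits of the constitutive core passed the test, and their median log2 fold change was 0.05. *Psmb9*, *Psmb8* and *Psmb10* encode the catalytic subunits that replace the constitutive ones and shift cleavage towards peptides that fit MHC class I. *Psmb9* went from 1.64, 1.22 and 0 CPM to 70.8, 91.2 and 85.3 (6.33 ± 0.37, adjusted p = 3.70e-18). *Psmb10* was present in the controls at 43.1, 53.7 and 64.4 and reached 415, 441 and 397 (2.96 ± 0.15, adjusted p = 9.20e-21). *Psmb8* had 1 count over the controls and 17.98, 26.6 and 29.3 CPM at 24 h (adjusted p = 3.30e-10), a ratio of 111 with a counting interval from 19.4 to 4405. The 3 catalytic genes thus started from different levels and were all well separated from control.

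PA28, a ring that opens the proteasome and speeds peptide release, is built from the products of *Psme1* and *Psme2*, which are neighbours on chromosome 14. *Psme2* rose from 219.9, 239 and 248 to 1201, 1465 and 1286 CPM (2.48 ± 0.12, adjusted p = 5.89e-21) and *Psme1* from 32.7, 29.3 and 30.2 to 143, 194 and 209 (2.56 ± 0.18, adjusted p = 1.12e-15). Their log2 fold changes are close, at 2.48 and 2.56.

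Of 8 tested genes of peptide transport, trimming and loading, 4 were higher. *Tap1* and *Tap2*, which together form the peptide pump, were scarce: *Tap1* had 2 counts over the controls and 8.99, 8.198 and 19.1 CPM at 24 h (adjusted p = 6.95e-05), a ratio of 30.4 (counting interval 8.06 to 256). *Tap2* had no control count and was at least 11.6-fold higher (adjusted p = 0.00129). *Tapbp*, the bridge between TAP and class I, rose from 3.82, 7.33 and 3.22 to 70.8, 47.1 and 58.1 CPM (adjusted p = 7.87e-11). *Erap1*, which trims peptides in the endoplasmic reticulum, rose from 4.36, 3.66 and 5.15 to 68.5, 65.6 and 39.9 (3.62 ± 0.31, adjusted p = 1.24e-12). The general chaperones *Calr*, *Canx* and *Pdia3* and the editor *Tapbpl* were not called. *Tapbpl* was at 616, 704 and 761 CPM in the controls and 558, 667 and 561 at 24 h (log2 fold change -0.22 ± 0.12, adjusted p = 0.779).

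Of 8 tested genes of the class I list, 5 were higher. *B2m*, the invariant light chain, was already high in the controls at 859, 610.4 and 877 CPM and stood at 1402, 1929.6 and 2206 at 24 h, a log2 fold change of 1.24 ± 0.16 (adjusted p = 4.78e-07). Among the heavy chains, the classical *H2-D1* went from 20.7, 36.6 and 20.6 to 95.5, 85.1 and 115 CPM (adjusted p = 4.30e-10) and the nonclassical *H2-T22* from 15.3, 23.2 and 18.02 to 151, 121 and 109.9 (2.79 ± 0.21, adjusted p = 1.47e-14). *Nlrc5*, the transactivator of class I genes, had 1 control count and 12.4, 8.198 and 6.79 CPM at 24 h (adjusted p = 0.000656), a ratio of 34.9 (counting interval 5.86 to 1416). *H2-M3*, which presents formylated peptides, went from 1.09, 0 and 1.93 to 4.49, 13.3 and 14 (adjusted p = 0.000284).

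*H2-T23*, which encodes Qa-1b, the ligand of the inhibitory receptor NKG2A, did not share this rise. It was at 591, 702 and 701 CPM in the controls and 605, 649 and 519.6 at 24 h, and the groups overlapped (-0.17 ± 0.14, adjusted p = 0.898). The classical heavy chain *H2-K1* had 1 count over the 3 controls and 7 over the 3 treated samples, too few to test with any precision (adjusted p = 0.796). Class I genes are a multigene family whose 3′ ends resemble each other, and how shared reads were split is not known. None of 4 tested genes of the class II pathway passed the test, and *Ciita*, its master regulator, and *Cd74*, the invariant chain, were too low to be tested.

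**Figure D2:**
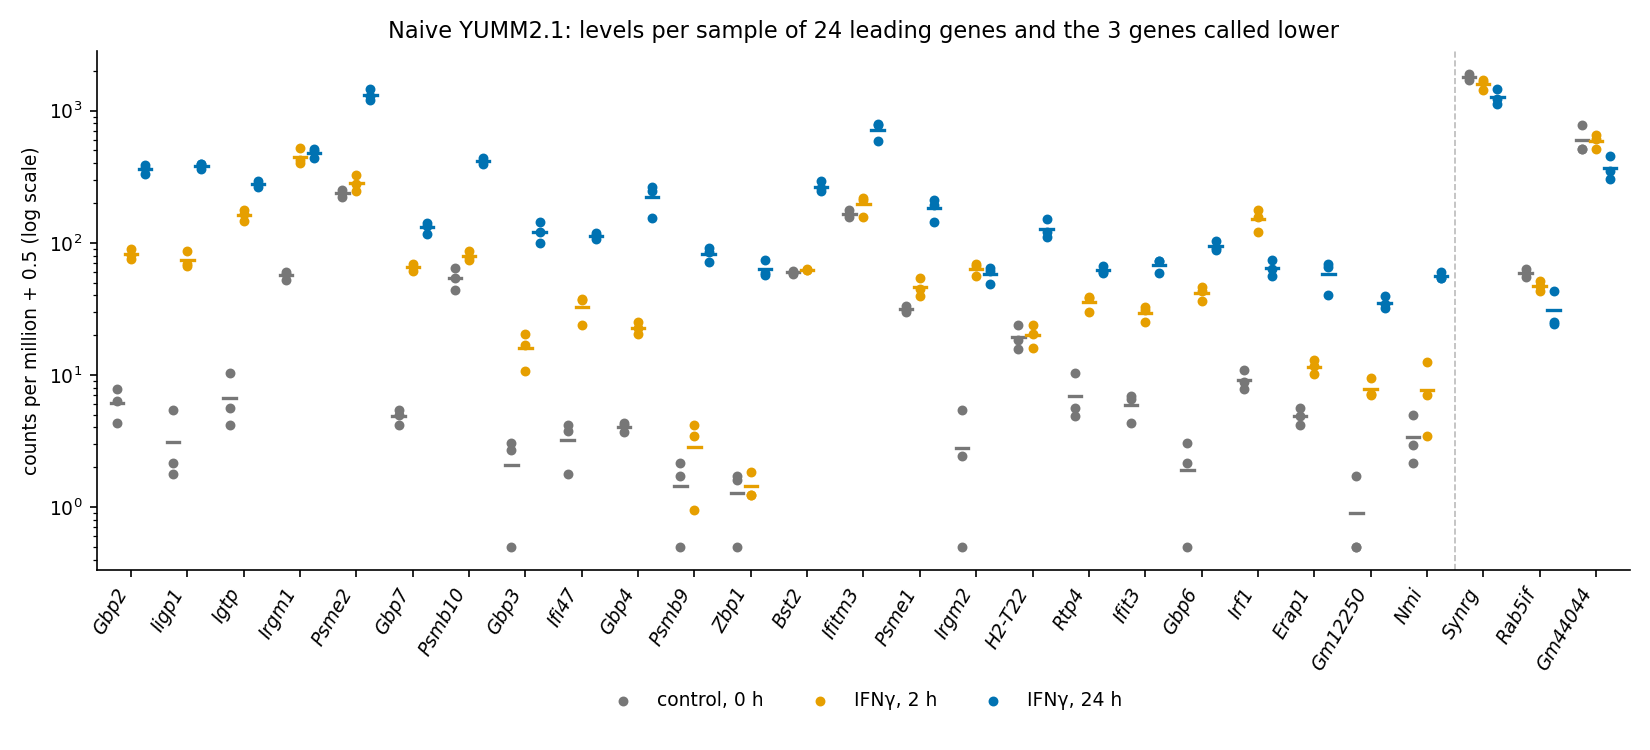
Points are single samples of naive YUMM2.1 at 0 h (grey), 2 h (orange) and 24 h (blue), and short bars are group means, in CPM plus 0.5 on a log axis. The 24 genes given in full stand left of the dashed line with every 24 h sample above every control, and *Synrg*, *Rab5if* and *Gm44044* stand right of it with every 24 h sample below every control.

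Interferon-induced membrane proteins rose in 5 of 7 tested members. *Ifitm3*, which blocks the fusion of enveloped viruses, went from 165, 155 and 175 CPM to 585, 782 and 788 (2.12 ± 0.14, adjusted p = 6.94e-16). *Bst2*, or tetherin, which holds budding virions at the cell surface, went from 61.1, 58.6 and 57.9 to 292, 248 and 257 (2.16 ± 0.14, adjusted p = 6.97e-17). The surface proteins *Ly6a* (Sca-1) and *Ly6c1* rose from group means of 0.182 ± 0.315 and 2.16 ± 1.87 CPM (mean ± SD) to 6.47 ± 1.05 and 20.6 ± 2.34. The call of *Ly6a* was lost without 24 h replicate 3 or any 1 control (adjusted p from 0.0599 to 0.196). *Lgals3bp*, a secreted glycoprotein that binds galectins, had no control count and was at least 12.9-fold higher at 24 h (6.74, 9.22 and 10.2 CPM, adjusted p = 0.000121).

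Of 15 tested antiviral effectors, 9 were higher. *Ifit3*, which binds viral RNA in a complex with *Ifit1*, rose from 3.82, 6.104 and 6.44 to 71.9, 71.7 and 58.1 CPM (3.63 ± 0.28, adjusted p = 6.27e-14). *Ifit3* and its copy *Ifit3b* together summed to 5.46, 9.77 and 7.08 in the controls and to 89.9, 87.1 and 69.1 at 24 h. *Rtp4*, an inhibitor of flavivirus replication, rose from 4.36, 9.77 and 5.15 to 66.3, 59.4 and 58.5 (3.38 ± 0.26, adjusted p = 3.40e-14). *Nmi*, a partner of STAT factors, rose from 1.64, 2.44 and 4.505 to 53.9, 59.4 and 53.4 (4.24 ± 0.36, adjusted p = 1.60e-12), and *Ifi35*, which forms a complex with it, from a mean of 42.8 ± 8.44 to 117 ± 20.4 (SD, adjusted p = 2.97e-08). *Ifi27*, a small membrane protein, rose from 66.2 ± 0.774 to 204 ± 22.2, the exonuclease *Isg20* from 5.02 ± 2.64 to 18.96 ± 2.23, *Ifit1* from 4.01 ± 0.815 to 18.01 ± 3.18, and *Samd9l*, which restrains translation, from 7.24 ± 6.02 to 36.1 ± 7.73. *Ifit1* lost its call without control replicate 1 (adjusted p = 0.0539). *Oasl2* was at 2.73, 0 and 0 CPM in the controls and 8.99, 6.15 and 6.36 at 24 h (adjusted p = 0.0794), and was called with the replicate block (0.0250), without control replicate 1 (0.00569) and with all 12 controls (3.49e-05). *Oas1a*, *Oas2*, *Oas3*, *Mx1*, *Mx2* and *Rsad2* were too low to be tested.

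Of 5 tested genes of ISG15 conjugation and removal, 2 were higher, both for enzymes that attach this ubiquitin-like protein. *Isg15* itself held few counts. *Ube2l6*, the conjugating enzyme, went from 12, 7.33 and 8.37 to 76.4, 88.1 and 80.6 CPM (3.07 ± 0.28, adjusted p = 8.83e-12), and *Uba7*, the activating enzyme, from 4.91, 0 and 9.01 to 10.1, 20.5 and 22.1 (adjusted p = 0.02795). *Isg15* had 1 count over the controls and 2, 3 and 8 counts at 24 h (adjusted p = 0.183, and 0.00999 with all 12 controls). *Uba7* was no longer called without 24 h replicate 2 or 3 or control replicate 1 or 2 (adjusted p from 0.122 to 0.314).

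Of 8 tested genes of the interferon-induced PARP list, *Parp9* and *Parp14* were higher. *Parp14*, a mono-ADP-ribosyltransferase, stood at 1.64, 1.22 and 1.93 CPM in the controls, at 7.56, 9.51 and 8.904 after 2 h and at 10.1, 17.4 and 5.09 at 24 h. The 24 h level was above control by a log2 fold change of 2.52 ± 0.57 (adjusted p = 0.00902), and every treated sample was above every control. The call was lost without 24 h replicate 2 or any 1 of the controls, with adjusted p from 0.0519 to 0.212 and log2 fold changes from 1.96 to 2.65. *Parp9*, which lies within the same stretch of chromosome 16, went from 5.46, 1.22 and 2.57 to 21.4, 14.3 and 18.7 (2.35 ± 0.41, adjusted p = 0.000138). Its partner *Dtx3l*, a ubiquitin ligase, was at 1.09, 3.66 and 2.57 CPM in the controls and 14.6, 10.2 and 8.06 at 24 h (2.22 ± 0.68, adjusted p = 0.171), *Parp12* at 1.64, 1.22 and 2.57 in the controls and 10.1, 8.198 and 6.36 at 24 h (2.02 ± 0.67, adjusted p = 0.271), and *Parp10* at 1.09, 1.22 and 0.644 in the controls and 2.25, 2.05 and 11.5 at 24 h (2.61 ± 0.85, adjusted p = 0.258). In these 3 genes the treated samples were also above the controls, a separation that 6.98% of all tested genes showed, and none passed the test. With all 12 controls *Dtx3l* (adjusted p = 7.71e-05) and *Parp12* (8.18e-05) were called, and *Dtx3l* also without the filter (0.0218). The median of the list was 2.12.

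Of the cytosolic nucleic acid sensors, 1 of 10 tested genes was called. *Zbp1*, which senses left-handed nucleic acid and can start necroptosis, had 3 counts over the controls (1.09, 1.22 and 0 CPM) and 58.4, 73.8 and 56.8 CPM at 24 h (adjusted p = 7.19e-18). The counting ratio was 85.6 with an interval from 28.98 to 418. *Ifih1* (MDA5), a sensor of double-stranded RNA, was at 0.546, 2.44 and 0 CPM in the controls and 7.87, 3.07 and 3.39 at 24 h (adjusted p = 0.329, and 0.00838 with all 12 controls). In the PYHIN family of DNA-binding interferon proteins, *Ifi211* rose from 39.3, 20.8 and 34.8 to 60.7, 58.4 and 55.99 (adjusted p = 0.0492), and *Ifi203* was at 6.55, 3.66 and 5.79 in the controls and 15.7, 17.4 and 13.1 at 24 h (1.41 ± 0.38, adjusted p = 0.0613, and 0.00121 with all 12 controls). *Ifi211* lost its call without any 1 of the 24 h samples and without control replicate 2 or 3 (adjusted p from 0.164 to 0.426).

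Genes of cell death pathways were called in 4 of 14 tested members. Besides *Zbp1* these were *Mlkl*, the executor of necroptosis, which went from 34.4 ± 6.42 to 57.9 ± 9.36 CPM (mean ± SD, adjusted p = 0.0138), *Casp1*, the inflammasome protease, from 35.8 ± 7.198 to 68.9 ± 2.36 (adjusted p = 0.004598), and its chromosome 9 neighbour *Casp12*, from 27.4 ± 5.27 to 50.6 ± 3.999 (adjusted p = 0.0166). All 3 changed by less than 2-fold. *Trim21*, a cytosolic antibody receptor, had no control count and was at least 6.31-fold higher at 24 h (adjusted p = 0.0142). Of these calls, that of *Casp1* was lost without control replicate 1 or 3, that of *Casp12* without 24 h replicate 1 or 3 or control replicate 2 or 3, and that of *Mlkl* without 24 h replicate 2 or 3 or control replicate 2 or 3 (adjusted p from 0.0652 to 0.326 over the 3 genes). That of *Trim21* was lost without 24 h replicate 2 or any 1 control (0.0505 to 0.1398).

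Of 7 tested chemokines and related secreted factors, 2 were higher. *Cxcl10*, which draws T cells through CXCR3, stood at 1.09, 1.22 and 1.93 CPM in the controls, 17.8, 16.1 and 14.1 at 2 h and 6.74, 5.12 and 12.3 at 24 h (2.58 ± 0.58 for 24 h minus control, adjusted p = 0.00741). *Il18bp*, a secreted decoy for interleukin-18, rose from 0, 1.22 and 2.57 to 23.6, 29.7 and 27.1 (adjusted p = 5.39e-08), and it overlaps *Numa1* on the other strand. *Ccl2* was at 492, 397 and 467 CPM in the controls and 475, 551 and 603 at 24 h (0.27 ± 0.13, adjusted p = 0.699). *Csf1*, the macrophage growth factor, was at 10.9, 15.9 and 9.65 in the controls and 28.1, 22.5 and 38.6 at 24 h (1.41 ± 0.39, adjusted p = 0.0725), separated but not called. *Cxcl9* had 0 counts in all 6 samples. The call of *Cxcl10* was lost without 24 h replicate 3 or control replicate 1 (adjusted p = 0.386 at the highest).

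None of 7 tested checkpoint and lymphocyte ligands passed the test. *Cd274*, which encodes PD-L1, held 2, 2 and 3 counts in the controls, 18, 11 and 12 at 2 h and 6, 1 and 9 at 24 h. At 24 h this was 6.74, 1.02 and 3.82 CPM against 1.09, 2.44 and 1.93 in the controls (1.14 ± 0.67, adjusted p = 0.797), and the groups overlapped. With all 12 controls *Cd274* was called higher at 24 h (2.54 ± 0.61, adjusted p = 0.0126).

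Of 9 tested metabolic genes, 3 were higher. *Lap3*, a leucine aminopeptidase, went from 66.2 ± 16.5 to 117 ± 5.24 CPM (mean ± SD, adjusted p = 0.00278). The lipid-binding genes *Apol9a* and *Apol9b*, which are near-identical, summed to 0.546, 2.44 and 0.644 in the controls and to 16.9, 16.4 and 18.2 at 24 h. *Wars*, the tryptophanyl-tRNA synthetase, was at 66.6, 59.8 and 66.3 in the controls and 110.1, 96.3 and 91.2 at 24 h (0.60 ± 0.18, adjusted p = 0.1297), separated but not called, and was called with all 12 controls (adjusted p = 0.0112). *Ido1* and *Nos2*, the tryptophan- and arginine-consuming enzymes often raised by IFNγ, had 0 counts in all 6 samples. The call of *Lap3* was lost without control replicate 1 or 2 (adjusted p 0.0539 and 0.1003), and that of *Apol9a* without 24 h replicate 2 or 3 or control replicate 1 or 3 (0.0527 to 0.306).

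In the lists outside the interferon response, 1 gene was called. None was called among 7 of the NF-κB list, 12 AP-1 and EGR immediate-early factors, 12 G1 regulators including *Myc* and *Cdkn1a*, 30 genes of DNA replication and mitosis, 17 of glycolysis, 14 of the ER stress response, 17 of sterol and fatty acid synthesis, 15 of matrix and integrins, 4 of the melanocyte lineage, 80 of the cytosolic ribosome and 73 of the respiratory chain. These counts come from edgeR at the adjusted threshold. Over all tested genes 0.855% were called higher and 0.0313% lower, a share at which lists of this size hold few calls or none. The counts are near that share and do not show that these functions did not respond. The medians of these lists lay between -0.06 and 0.17, against 0.02 over all genes. In the list of TGFβ signalling and targets, 1 of 17 tested genes was higher, the matrix glycoprotein *Thbs1*, at 15.3, 18.3 and 14.8 CPM in the controls and 52.8, 19.5 and 56.8 at 24 h (1.49 ± 0.35, adjusted p = 0.0153). Its second treated sample lay just above the highest control. The call of *Thbs1* was lost without 24 h replicate 1 or 3 or control replicate 1 or 3 (adjusted p from 0.0899 to 0.370).

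**Figure D3:**
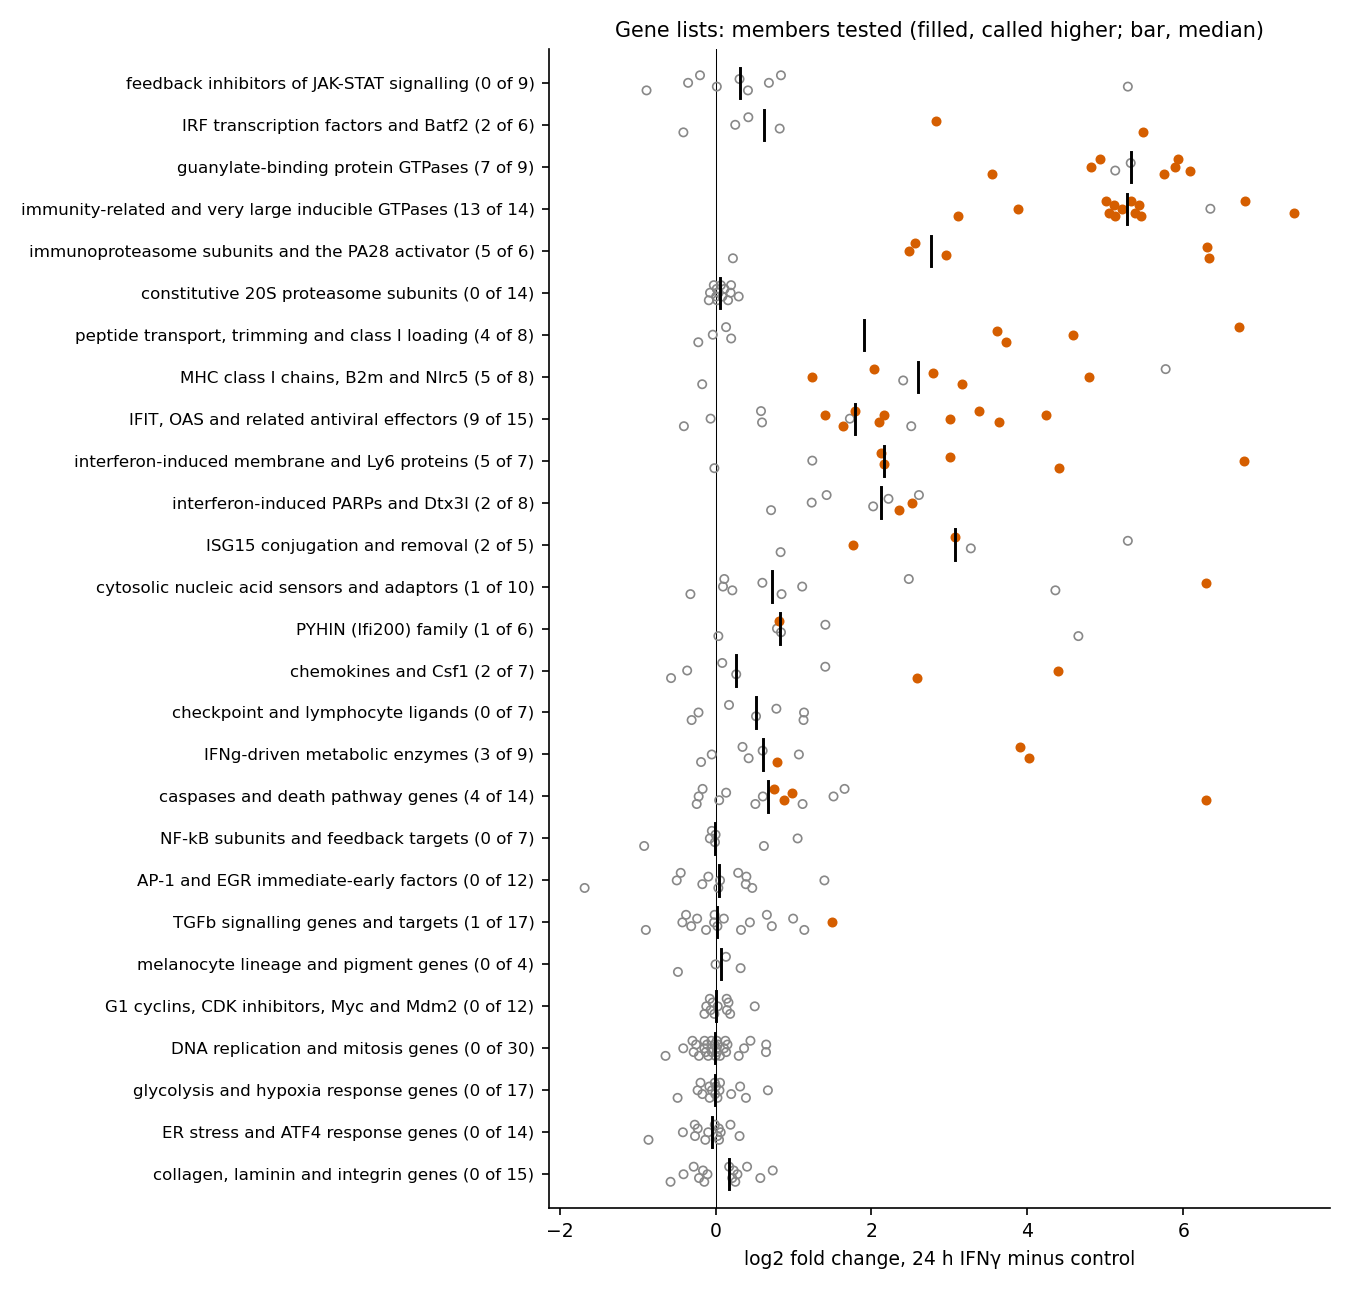
Each row is a gene list, each circle a tested member placed by its log2 fold change at 24 h minus control, filled where it was called higher, and the bar marks the median. The numbers in brackets give called and tested members. GBPs and IRGs lie around 5, the immunoproteasome near 2.8, and cell cycle, glycolysis and constitutive proteasome genes around 0.

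The 3 genes called lower changed little. *Synrg*, a partner of the clathrin adaptor AP-1 in vesicle traffic, stood at 1714, 1881 and 1788 CPM in the controls and 1219, 1455 and 1121 at 24 h (-0.51 ± 0.12, adjusted p = 0.0187). *Rab5if*, named for its link to the endosomal GTPase Rab5, stood at 58.9, 54.9 and 62.4 in the controls and 24.7, 23.6 and 42.8 at 24 h (-0.87 ± 0.21, adjusted p = 0.0238). *Gm44044*, a transcript model inside *Rybp* on the same strand of chromosome 6, stood at 508, 513 and 777 in the controls and 302, 452 and 347 at 24 h (-0.71 ± 0.18, adjusted p = 0.0322). None of the 3 remained called when control replicate 3 or 24 h replicate 1 was left out. *Rab5if* was also lost without 24 h replicate 2 or control replicate 1, *Synrg* without 24 h replicate 3 or control replicate 2, and *Gm44044* without 24 h replicate 3 (adjusted p from 0.0537 to 0.667 over the 3 genes). With all 12 YUMM2.1 controls of 0 to 3 weeks in place of the 3 at 0 weeks, *Synrg* and *Gm44044* were no longer called.

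Of the 82 higher genes, 48 (58.5%) had another of them within 500 kb. Of 9506 other tested genes with a position, 504 (5.30%) had one of the 82 that near (coordinates of GRCm38, also called mm10). The largest run was chr11:48861968-49096974 with *Irgm1*, *Gm12185*, *Tgtp1*, *9930111J21Rik2*, *Tgtp2* and *Ifi47*, where all 6 tested genes were higher. At chr11:58187739-58222782 all 3 tested genes were higher (*Gm12250*, *Igtp*, *Irgm2*), at chr3:142530342-142638008 all 3 (*Gbp7*, *Gbp3*, *Gbp2*), and at chr5:105014150-105293698 5 of 6 (*Gbp8*, *Gbp9*, *Gbp4*, *Gm43302*, *Gbp6*). On chromosome 18, *Gm4951*, *Gm4841*, *F830016B08Rik*, *Iigp1* and *BC023105* lie in one run, and all 5 tested genes there were higher. In the MHC at chr17:33915899-34216321, 5 of 18 tested genes were higher (*Tapbp*, *Psmb9*, *Tap1*, *Psmb8*, *Tap2*). *Psmb9* and *Tap1* start from overlapping ends on opposite strands. Genes of these runs that overlap on the same strand can share reads, as can near-identical copies such as *Tgtp1* and *Tgtp2*. Same-strand overlaps are *Gm12185* with *Tgtp1*, *Igtp* with *Irgm2* and *Gm43302* with *Gbp6*, and *Gbp4*, *Gbp8* and *Gbp9* overlap each other. The numbers and shares of this paragraph therefore do not count independent genes.

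Several of the called genes that belong to no list lie beside interferon genes. *Insl6*, an insulin-like gene of the testis, ends 8.26 kb from *Jak2* on the opposite strand and rose from 12, 12.2 and 12.9 to 74.2, 87.1 and 77.6 CPM (adjusted p = 1.44e-11). *Tvp23a*, a Golgi protein gene 32.7 kb from *Ciita*, rose from 8.18, 4.88 and 5.79 to 33.7, 30.7 and 30.96 (adjusted p = 7.53e-07). *9330175E14Rik* overlaps *Nlrc5* on the opposite strand and had 1 control count against 6.74, 6.15 and 12.7 CPM at 24 h (adjusted p = 6.41e-05). *Gm20559*, 26.1 kb from *Samd9l*, rose from 6.104 ± 1.403 to 23.2 ± 5.55 (mean ± SD), and the splicing factor gene *Rbfox2*, 21.9 kb from *Apol6*, from 14.7 ± 1.200 to 39.6 ± 9.06. Whether the counting used strand is not stated, so reads of overlapping genes on opposite strands cannot be told apart.

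The other called genes of no list included *Ubd*, the ubiquitin-like modifier FAT10, which had no control count and was at least 15.6-fold higher (adjusted p = 1.30e-05). *Apol6*, an apolipoprotein L, had 2 control counts and a counting ratio of 29.9 (interval 7.92 to 252). *Serpina3f*, a serine protease inhibitor, had 2 control counts and 2.25, 13.3 and 10.2 CPM at 24 h (adjusted p = 0.00207, and 0.0537 without control replicate 3). Among the gene models, *Gm12185*, which overlaps *Tgtp1* on the same strand, had 1 control count and 28.1, 15.4 and 13.1 CPM at 24 h (adjusted p = 2.40e-07). The processed pseudogene *BC023105* had no control count and was at least 7.63-fold higher (adjusted p = 0.0322). *BC023105* was no longer called without 24 h replicate 1 or 2 or any 1 control (adjusted p from 0.101 to 0.212). Smaller changes at higher levels were seen in the gluconokinase gene *Idnk*, from 46.8 ± 0.323 to 99.6 ± 3.79 CPM, in *Snx10*, an endosomal sorting nexin, from 28.1 ± 4.09 to 51.3 ± 11.03, in *Vwa5a* from 7.75 ± 3.402 to 22.9 ± 4.91 and in *Mpv17l*, a relative of the mitochondrial protein Mpv17, from 317 ± 22.7 to 475 ± 40.2 (mean ± SD). *Mpv17l* had the smallest fold change of the higher genes, 1.49-fold. Its call was lost without 24 h replicate 2 or control replicate 2, that of *Snx10* without 24 h replicate 2 or control replicate 1, and that of *Vwa5a* without control replicate 1 (adjusted p from 0.0668 to 0.153 over the 3 genes).

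The 24 h samples were next set against the 2 h samples, a comparison that uses no control but shares the 24 h samples with the one above. At 24 h, 53 genes were higher and 1 was lower than at 2 h, 0.553% and 0.0104% of the 9589 tested. Of the 82 genes raised over control, 52 were higher at 24 h than at 2 h, 1 was lower and 29 were not called. The 82 were picked for high values in the same 24 h samples, which favours 24 h over 2 h here and in the shares below. Of the genes called against 2 h, 18 lost their call without at least 1 library. The median of the 82 stood at 27.9% of its 24 h level at 2 h (quartiles 15.98% and 49.97%), and 37 genes were under 25%. The share is the 2 h mean over the 24 h mean with no control level taken off, so it does not measure progress of the rise. *Mpv17l* stood at 65.7%, though its 2 h mean of 312.5 CPM was below its control mean of 316.9. The summed level of the 82 genes was 2435, 2130.4 and 2508 CPM in the controls, 4463, 3926 and 4279 at 2 h and 10920.3, 12335 and 11695 at 24 h.

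The lowest levels at 2 h relative to 24 h were those of *Zbp1* (1.49%) and of the immunoproteasome subunits *Psmb8* (1.99%) and *Psmb9* (2.86%). *Psmb9* was at 0.445, 2.93 and 3.71 CPM at 2 h and rose between 2 h and 24 h by 5.29 ± 0.31 on the log2 scale (adjusted p = 1.46e-17). *Psme2* stood at 279, 246 and 323 CPM at 2 h and changed by 2.22 ± 0.12 from there (adjusted p = 1.33e-18). *H2-T22* stood at 15.6, 23.4 and 20.03 and changed by 2.70 ± 0.20 (adjusted p = 2.11e-14), and *Bst2* at 63.2, 61.4 and 61.6 with 2.09 ± 0.13 (adjusted p = 2.05e-16). For *H2-T22* and *Bst2* the 2 h samples lay within or close to the range of the controls.

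*Irf1* was the 1 gene called lower at 24 h than at 2 h, by -1.25 ± 0.16 on the log2 scale (adjusted p = 3.54e-07), and its 2 h mean was 236% of the 24 h mean. *Cxcl10* stood at 199% at 2 h, but the difference was not called (adjusted p = 0.899). *Irgm1* was at 525, 401 and 419 CPM at 2 h and *Irgm2* at 68.5, 65.8 and 55.7, or 93.2% and 110% of their 24 h means, and neither was called. Among the GTPases, *Igtp* stood at 176, 165 and 146 at 2 h and rose further by 0.77 ± 0.16 (adjusted p = 0.00495, but 0.0655 without 24 h replicate 2 and 0.103 without 2 h replicate 3), *Gbp2* at 89.8, 74.6 and 80.1 with a further 2.15 ± 0.14 (adjusted p = 1.13e-16), and *Iigp1* at 65.8, 86.3 and 69.01 with 2.39 ± 0.17 (adjusted p = 4.38e-15). *Gm19705*, a lincRNA, was higher at 24 h than at 2 h (1.48 ± 0.27, adjusted p = 0.000503) without being called against control (0.99 ± 0.26, adjusted p = 0.0535).

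**Figure D4:**
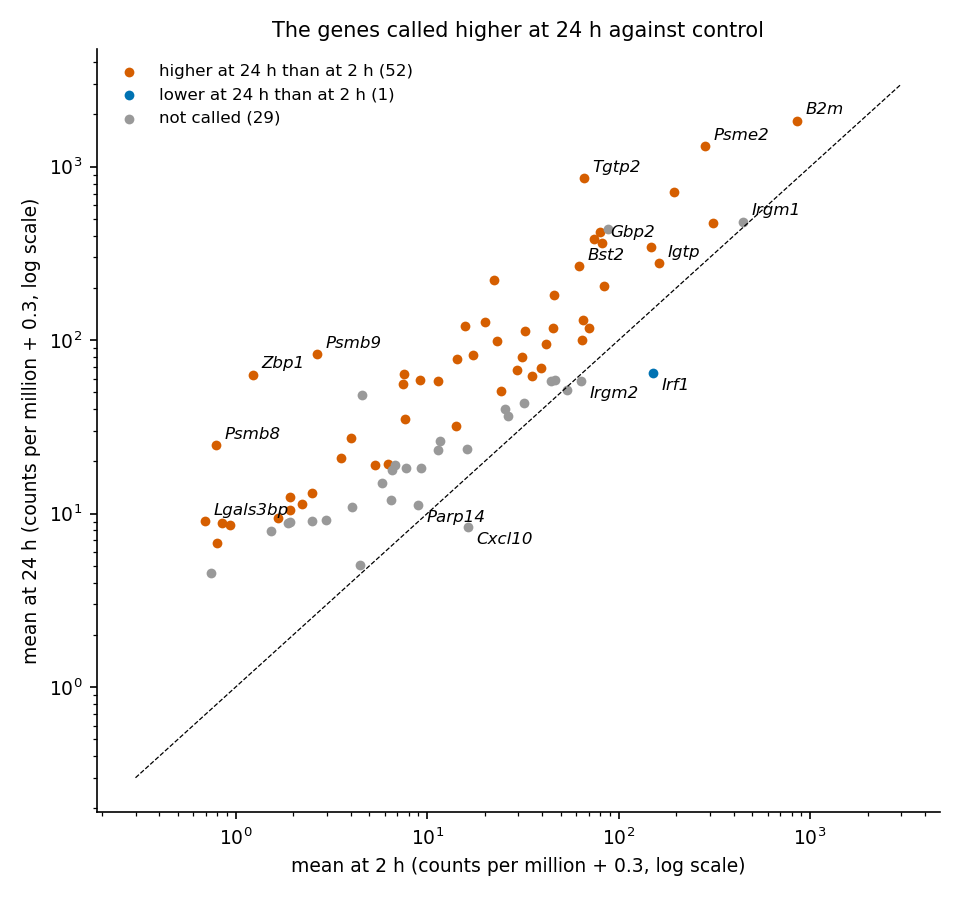
Each point is 1 of the 82 genes called higher at 24 h, with its mean at 2 h on the x axis and its mean at 24 h on the y axis, both in CPM plus 0.3 on log scales, and the dashed line marks equal levels. The 52 genes called higher at 24 h than at 2 h (orange) lie above the line, *Irf1* (blue) lies below it, and 29 genes are grey.

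The 24 h response was finally compared with that of CT26, a mouse colon carcinoma line treated in the same way, by testing the difference between both responses in one fit over all 90 samples. Of 10339 genes tested, 4 responded more in YUMM2.1 and 5 less, 0.0387% and 0.0484%, and 848 had an unadjusted p below 0.05. All 82 genes were tested in that fit. In CT26, 77 of them had a positive log2 fold change and 65 were called higher, where 1.32% of all genes tested were (136). The 24 h libraries of CT26 held 519097, 618598 and 1337965 counts, and the first pair of these lay below every YUMM2.1 total given above.

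Of the 82, 3 were called different between the lines, all with the larger response in YUMM2.1. The 82 were chosen for their rise in the same YUMM2.1 samples. That choice favours this direction, which is therefore no result about the lines. *Ifi27* went from 67.1, 65.9 and 65.6 to 181, 206 and 225 CPM in YUMM2.1 and from 103, 93.1 and 86.8 to 90.3, 95.9 and 102 in CT26, a difference of 1.54 ± 0.24 between the log2 fold changes (adjusted p = 4.01e-05). *H2-D1* started higher in CT26, at 168, 208 and 186, and reached 235, 295 and 381 there, a difference of 1.27 ± 0.25 (adjusted p = 0.00566). The study implanted CT26 into BALB/c mice and YUMM2.1 into C57BL/6 mice, and both lines were counted on mm10. Whether reads of class I genes such as *H2-D1* were assigned alike in both lines was not tested, so its levels and fold changes may not be comparable between them. *Lgals3bp* had no control count in YUMM2.1 but 45.2, 38.5 and 39.9 CPM in CT26 controls and 103, 123 and 155 at 24 h, and the fitted difference of 4.92 ± 1.03 (adjusted p = 0.0241) depends on how the 0 counts are treated. The fourth gene, *Sirt5*, a mitochondrial deacylase, was at 60.6, 53.7 and 59.9 in the YUMM2.1 controls and 61.8, 79.9 and 78.04 at 24 h, whereas in CT26 it went from 830.0, 935 and 1000.3 to 323, 362 and 416, a difference of 1.61 ± 0.22 (adjusted p = 1.59e-06). The call of *H2-D1* was lost in 4 alternatives (adjusted p from 0.118 to 0.154), among them those without YUMM2.1 24 h replicate 3 or control replicate 1 or 3. That of *Lgals3bp* was lost in 6 (0.0542 to 0.273), among them DESeq2 and those without YUMM2.1 24 h replicate 3 or any 1 of its controls. *Ifi27* and *Sirt5* stayed called in every alternative run.

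The 5 genes with a smaller response in YUMM2.1 rose in CT26 and were not called in YUMM2.1. *Ifi204*, a PYHIN sensor of DNA, was at 41.5, 53.7 and 31.5 CPM in the YUMM2.1 controls and 34.8, 49.2 and 41.99 at 24 h and at 32.2, 31.03 and 23.2 in the CT26 controls and 81.9, 77.8 and 93.6 at 24 h (difference -1.58 ± 0.31, adjusted p = 0.00566). *Ddx58*, which encodes the RNA sensor RIG-I, was at 7.64, 6.104 and 7.08 in the YUMM2.1 controls and 10.1, 12.3 and 10.2 at 24 h and at 1.53, 4.05 and 3.22 in the CT26 controls and 16.8, 30.8 and 26.4 at 24 h (difference -2.48 ± 0.57, adjusted p = 0.0494). *Daxx*, a histone chaperone of PML bodies, differed by -1.87 ± 0.41 (adjusted p = 0.0277). *Tbrg1*, named for its regulation by TGFβ, differed by -0.85 ± 0.19 (adjusted p = 0.0365) and *Tor1aip2*, a nuclear envelope protein, by -1.28 ± 0.29 (adjusted p = 0.0494). The call of *Ddx58* was lost in 14 of the 16 alternatives that gave it a value, and that of *Daxx* in 7 of 16. *Tor1aip2* lost its call in 12 of 17 alternatives, *Tbrg1* in 11 of 17 and *Ifi204* in 3 of 17. Leaving out 1 library at a time left between 0 and 4 genes with a smaller response. It was 0 without CT26 control replicate 3, 1 without 24 h replicate 1 or control replicate 3 of YUMM2.1, and 1 without CT26 control replicate 2. The number with a larger response lay between 2 and 5, and was 2 without 24 h replicate 3, control replicate 1 or control replicate 3 of YUMM2.1.

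**Figure D5:**
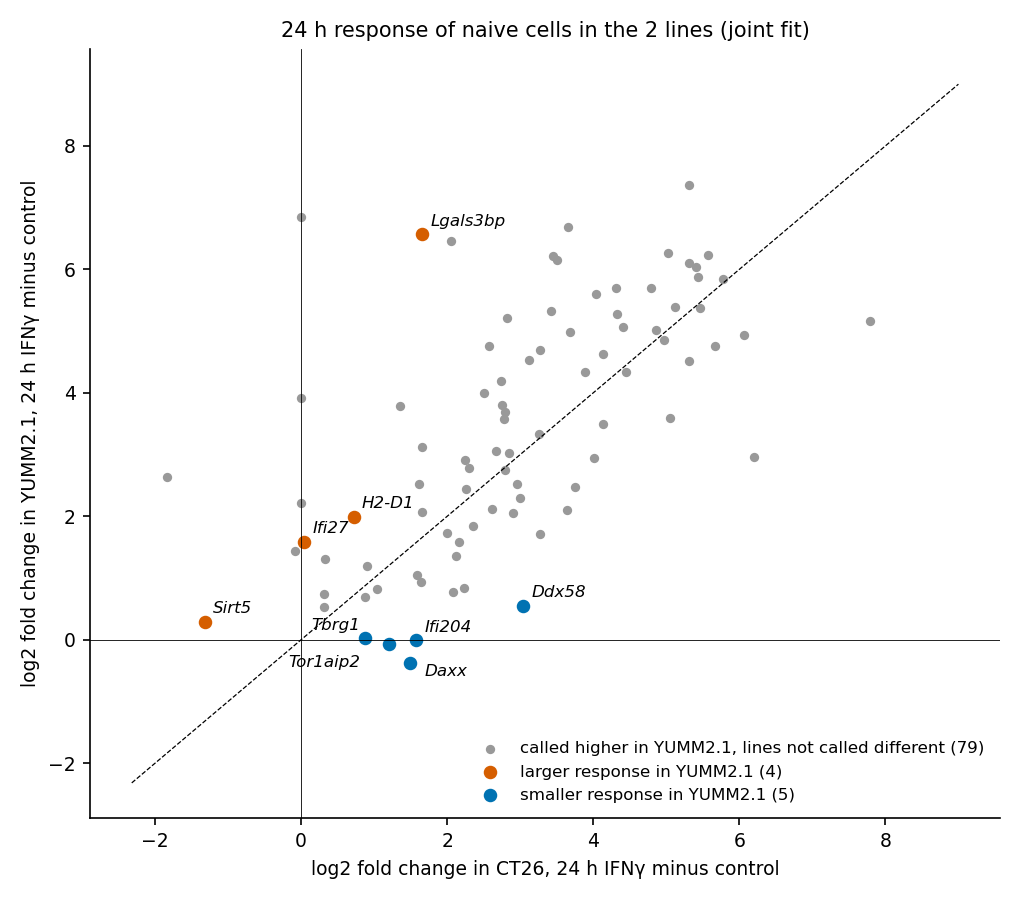
The log2 fold change at 24 h minus control in CT26 (x axis) and in YUMM2.1 (y axis) is drawn for the genes raised in YUMM2.1 (grey where the lines were not called different) and for the 4 genes with a larger (orange) and 5 with a smaller (blue) response in YUMM2.1, and the dashed line marks equal responses. *Sirt5* sits left of the vertical axis with -1.32 in CT26, and *Ddx58* far to the right with 3.04.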

How the data were processed

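The authors deposited 1 table of whole-number counts per gene and sample, not normalized and not pooled, made from paired-end 60 bp reads of 3′ digital gene expression libraries with Salmon 0.13.1 on mm10 (per the submitters' processing notes) and tximport. The annotation, use of strand or molecular identifiers and rounding are not given in the sources used here. The study left out 1 YUMM2.1 sample that it does not name, and all were kept here.

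Of 53697 identifiers, 53668 matched a symbol. Counts were tested in R 4.3.3 with edgeR 4.0.16 (filterByExpr by group, TMM scaling, quasi-likelihood fit over 45 YUMM2.1 samples in 15 groups without covariates, Benjamini-Hochberg threshold 0.05), and the difference from CT26 over all 90 samples. Levels are CPM on the TMM-scaled total. The SE of a log2 fold change was derived from the edgeR test, which gives none itself. It is the size of the log2 fold change over the square root of the F statistic, and is rough for genes with few counts. YUMM2.1 totals ranged from 274719 to 3161276, and no replicates of the 5 groups compared here (control, 2 h and 24 h of YUMM2.1, control and 24 h of CT26) agreed within counting error. RefSeq promoters (GRCm38.p6) were matched by symbol, identifier or synonym within 10 kb of the gene.

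The comparison, gene lists and motifs were chosen with earlier results of these data known. Given in full are the 25 genes with the smallest p among those called and without overlap between treated and control samples, and every gene called lower. Of these, 1 gene is not reported here. Other called genes and list members are named with values by group. For the other comparisons, called genes that are also called here or belong to a list, and the 10 smallest p in each direction, are named. Alternatives were DESeq2 1.42.0 with its size factors, library totals as scaling, no filter on low counts, a fit of only the groups compared, a block for the replicate number, leaving out each library, all 12 YUMM2.1 controls, leaving out 1 sample under 25% of the median total, and a log2 fold change of 1 or more in size. The code was tested on simulated data.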

Additional observations from a re-analysis of the deposited data

Results flagged for a closer look

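The 24 h responses of naive YUMM2.1 and CT26 cells differed for 9 genes when the difference itself was tested (edgeR quasi-likelihood test of the interaction over 90 samples, Benjamini-Hochberg adjusted). The difference, as the log2 fold change in YUMM2.1 less that in CT26, was positive for *Sirt5* (1.61), *Ifi27* (1.54), *H2-D1* (1.27) and *Lgals3bp* (4.92). It was negative for *Ddx58* (-2.48), *Daxx* (-1.87), *Ifi204* (-1.58), *Tor1aip2* (-1.28) and *Tbrg1* (-0.85). *Sirt5* and *Ifi27* kept adjusted p-values of 1.59e-06 and 4.01e-05, whereas *Ddx58* and *Tor1aip2* were near the threshold at 0.0494. *Sirt5* and *Ifi27* stayed called in every alternative run, and the other 7 genes lost their call without at least 1 library. For *H2-D1*, whether reads were assigned alike in both lines was not tested.

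*Lgals3bp* and *Ddx58* rest on few counts, since the YUMM2.1 controls held 0 counts of *Lgals3bp* and the CT26 controls 2, 6 and 5 counts of *Ddx58*. *Daxx* lay at 19.6, 24.4 and 35.4 CPM in the YUMM2.1 controls and at 15.7, 21.5 and 23.8 at 24 h, and at 27.6, 16.9 and 10.3 and then 56.7, 41.6 and 52.8 in CT26. *Tbrg1* was at 201, 176 and 183 and then 207, 212 and 177 in YUMM2.1, and at 166, 158 and 156 and then 313, 277 and 294 in CT26.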

How the results depend on the processing

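The 82 higher genes became 86 with library totals, 100 without a filter, 64 with only the compared groups (which tested 70 of the 85 called genes), 85 with DESeq2, 84 with the replicate block, 116 with all 12 controls, 80 without the 1 shallow sample and 75 when a log2 fold change of 1 or more in size was asked for. Of the main 82, 81, 79, 61, 82, 81, 80, 80 and 75 were shared with these in the same order. None of the 85 called genes changed direction under any alternative run, and 61 stayed called under every alternative that tested them. Without 1 library the count lay between 69 and 77. Without at least 1 library 24 calls were lost, of which 17 were lost without control replicate 1, 14 without control replicate 2, 17 without control replicate 3, 9 without 24 h replicate 1, 13 without 24 h replicate 2 and 10 without 24 h replicate 3 (adjusted p from 0.0505 to 0.667). Leaving out a library also lowers the number of samples in its group, so a lost call does not show that this library decided it. The log2 fold change of *BC023105* was 6.396 in the main fit and 6.399, 6.412 and 6.399 without control replicate 1, 2 or 3. Its call was lost each time.

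The 3 lower genes became 5 with library totals, 18 without a filter, 1 with only the compared groups, 6 with DESeq2, 17 with all 12 controls and 0 when that size was asked for (265 at an unadjusted p below 0.05), and between 0 and 5 without 1 library. It was 0 without control replicate 3 and 5 without 24 h replicate 2 or 3. All 3 main genes were among those with library totals, without a filter and with DESeq2. Only 1 of them was among those with all 12 controls and 0 with only the compared groups. Without 24 h replicate 1, 2 and 3, the main genes shared were 0, 2 and 1, so the genes called lower were in part others. Against 2 h, the 53 higher genes ranged from 40 to 50 without 1 library, and the 1 lower gene became 3 with library totals, 12 without a filter, 2 with only the compared groups, 4 with DESeq2 and between 1 and 3 without 1 library (3 without 24 h replicate 2 or 2 h replicate 2). *Irf1* was among the lower genes in each of these. The 4 genes with a larger response than in CT26 became 7 with library totals, 19 without a filter, 2 with only the compared groups and between 2 and 5 without 1 library. The 5 with a smaller response became 14 with DESeq2, 0 with only the compared groups (848 genes had an unadjusted p below 0.05 in the main fit) and between 0 and 4 without 1 library. The causes of these differences were not tested. Gains were followed only for a set of uncalled genes picked by name, so the gains listed here leave out others. Of that set, 13 were called with all 12 controls (*Oasl2*, *Dtx3l*, *Parp12*, *Gbp11*, *Usp18*, *Ifi203*, *H2-T10*, *Ifih1*, *Isg15*, *Wars*, *Stat2*, *Cd274* and *Irf2*, adjusted p from 3.49e-05 to 0.0281). With DESeq2, 2 of the set were called (*Gvin1* and *Stat2*), and without a filter 5 (*Gvin1*, *Stat2*, *H2-T10*, *Dtx3l* and *Csf1*). *Csf1* was called with only the compared groups (0.0403) and *Oasl2* with the replicate block (0.0250). Calls were lost as well. *Gm4070* was lost with library totals and the replicate block, and *Casp12*, *Ifi211* and *Mlkl* without a filter. *Ifi211*, *Snx10*, *Synrg* and *Gm44044* were lost with all 12 controls, and *Batf2* and *Gm4070* without the shallow sample. The fit of only the compared groups lost *Casp12*, *Gm44044*, *Ifi211*, *Mlkl*, *Rab5if*, *Snx10*, *Synrg*, *Uba7* and *Vwa5a*. The uncalled *Ccl2* and *H2-T23* reversed to -0.0012 and 0.0073 with all 12 controls. The share of promoters with a match was 50% in the 250 bases before the start and 48.1% with the longer ISRE.

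Samples with the same replicate number did not deviate together (r of -0.06, -0.01 and 0.28 between control and 24 h samples), so the numbers were not taken as pairs. The replicate block left 84 higher and 3 lower genes, 51 higher and 1 lower against 2 h, and 4 and 5 between the lines. Depth limits the precision for genes with a few counts, such as *Cd274*, *H2-K1* and *Isg15*. Results for genes left untested by an alternative have no value there.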
